A study of Mus musculus with 6 samples.

Results

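The genes described here were 9 genes of microtubule minus ends, microtubule severing and the centrosome, *Camsap1*, *Camsap2*, *Camsap3*, *Katna1*, *Katnal1*, *Spast*, *Fign*, *Cdk5rap2* and *Pcnt*. They were taken from a list of names, and their data were all clusters that overlapped the mm10 RefSeq gene bodies on the same strand, for 9 of the 45288 genes with a known strand. This gave 296 of the 359172 AGO2 clusters of the wild type (WT) library, and 487 of 616014 and 487 of 616005 in *Mov10* Deletion replicates 1 and 2. AGO2 binding was measured by chimeric eCLIP, in which RNA crosslinked to AGO2 is immunoprecipitated (IP) and sequenced beside a size-matched input, and in which some reads join a miRNA to the RNA it was held on. The samples were whole brains at postnatal day 0 (P0), 1 IP library from C57Bl/6J WT mice and 2 from *Mov10* Deletion mice, which carried a floxed *Mov10* allele (exons 6 and 7) with Emx1-Cre over a *Mov10* mutant allele. Emx1-Cre is known to act mainly in the excitatory neurons of the neocortex and hippocampus and in their progenitors, while whole brains were sampled, and in which cells the floxed allele was lost was not measured here. In such bulk tissue, fewer cells of a type and less bound RNA per cell cannot be told apart.

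Microtubules have a fast-growing plus end and a minus end. Proteins of the CAMSAP family bind free minus ends and stabilise them, which supports the non-centrosomal microtubules of neurons. Katanin, spastin and fidgetin are AAA ATPases that cut or trim microtubules, while CDK5RAP2 and pericentrin are scaffolds of the centrosome that hold γ-tubulin ring complexes, from which new microtubules grow. AGO2 is guided to such mRNAs by miRNAs, which pair with their targets mainly through the seed, nucleotides 2 to 8, most often in the 3′UTR.

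The let-7 members named in these genes are shown with other miRNAs that recurred at a place between libraries or had a seed match there, as RefSeq (GRCm38.p6) mature sequences, 5′ to 3′, with the seed in capitals. Of the 20 miRNAs named in the 9 genes, 17 had a sequence in this table, all but miR-124-3p, miR-30b-5p and miR-466i-5p. The 6 let-7 members share 1 seed, GAGGUAG.
let-7a-5p: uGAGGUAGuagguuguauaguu
let-7b-5p: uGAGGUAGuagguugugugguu
let-7c-5p: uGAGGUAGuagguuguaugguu
let-7d-5p: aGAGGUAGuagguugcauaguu
let-7e-5p: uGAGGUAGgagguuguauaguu
let-7f-5p: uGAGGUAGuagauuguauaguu
miR-125b-5p: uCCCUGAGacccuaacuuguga
miR-9-3p: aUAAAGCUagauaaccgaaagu
miR-19b-3p: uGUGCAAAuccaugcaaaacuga
miR-26a-5p: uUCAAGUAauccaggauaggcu

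Matches to these seeds in the last exons of *Fign* and *Camsap1* are shown in the GRCm39 sequence, 5′ to 3′ on the minus strand from which both genes are read, with the 7-nt match in capitals and the coordinates those of the match. They were chosen because they lie in the target clusters that named the miRNA or, for the other let-7 matches of *Fign*, because they share its last exon.
*Fign* let-7 match, chr2:63803953-63803959: ataaccatttCTACCTCattgctacat
*Fign* let-7 match, chr2:63803851-63803857: cttgaacagtCTACCTCagaaagactg
*Fign* let-7 match, chr2:63807529-63807535: acgttcatttCTACCTCagtttcgtta
*Fign* let-7 match, chr2:63809914-63809920: ctccgtgcagCTACCTCatccaaccac
*Camsap1* miR-19b-3p match, chr2:25818602-25818608: cacttgtagtTTTGCACatttcttttt
*Camsap1* miR-26a-5p match, chr2:25818577-25818583: ttgagagtgtTACTTGAatctgtctta

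Each AGO2 cluster was deposited with a log2 of IP over input and a −log10 p, and it was called enriched with both at 3 or more. The reads of a cluster were inferred from these values, where 1 input read can also mean that there was none. Clusters with a negative log2 were left out of this, and reads were found for 203 of 296, 361 of 487 and 332 of 487 clusters of the 9 genes. A cluster over 1 input read needed 16 inferred IP reads to be enriched in WT, but 9 and 8 in *Mov10* Deletion replicates 1 and 2, so the call was easier to reach in the *Mov10* Deletion libraries. The *Mov10* Deletion libraries shared 614927 identical cluster coordinates, and all 487 clusters in the 9 genes were among them, so in these libraries only the enrichment was measured separately. With 1 WT library no test between genotypes was made. In *Mov10* itself, WT held 11 clusters, with an enriched cluster at the gene end (19 inferred IP reads over 1 input read, −log10 p 3.87), and each *Mov10* Deletion library held 9, none enriched, with gene-end log2 values of 1.80 and 2.84. AGO2 clusters do not measure the deletion directly. As a check of the tissue, 5 of 5 neuron marker genes held clusters and target clusters in every library, and 1 of 5 genes of other organs held any AGO2 cluster, at most 3.

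Enriched clusters were few in the 9 genes, and most were found in 1 library only. WT held 2 of 296 (0.676%, exact 95% interval 0.0819 to 2.42, against 2.11% of all clusters), *Mov10* Deletion replicate 1 held 22 of 487 (4.52%, 2.85 to 6.76, against 5.18%) and replicate 2 held 8 of 487 (1.64%, 0.712 to 3.21, against 3.1%). Adjoining clusters can share reads, and merged within 20 nt they made 2, 13 and 4 runs. The median log2 of the clusters in these genes was 0.76, 1.21 and 1.25 in the 3 libraries, against 0.76, 1.12 and 1.25 of all clusters. The clusters of these genes thus had medians near those of all clusters, and in no library was their enriched share above the background.

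By gene, *Camsap1* and *Fign* held an enriched cluster in WT, 7 of the 9 genes in *Mov10* Deletion replicate 1 (all but *Katna1* and *Pcnt*), and *Camsap1*, *Katnal1* and *Fign* in replicate 2. Of the genes that had a cluster, 18.7%, 40.9% and 32.1% held an enriched one in the 3 libraries. In both *Mov10* Deletion libraries 24.1% did, and 15.6% of those with a cluster in every library held one in all 3. The genes with clusters at different places in each library count here too. These shares were not adjusted for clusters per gene, of which the 9 genes held 8 to 51 in WT and 7 to 92 in each *Mov10* Deletion library. Only 1 cluster position, in *Fign*, was enriched in both *Mov10* Deletion libraries, while 21 were enriched in replicate 1 alone and 7 in replicate 2 alone. Of all clusters enriched in replicate 1, 13.7% were also enriched at the same coordinates in replicate 2, and 22.9% the other way round.

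**Figure D1:**
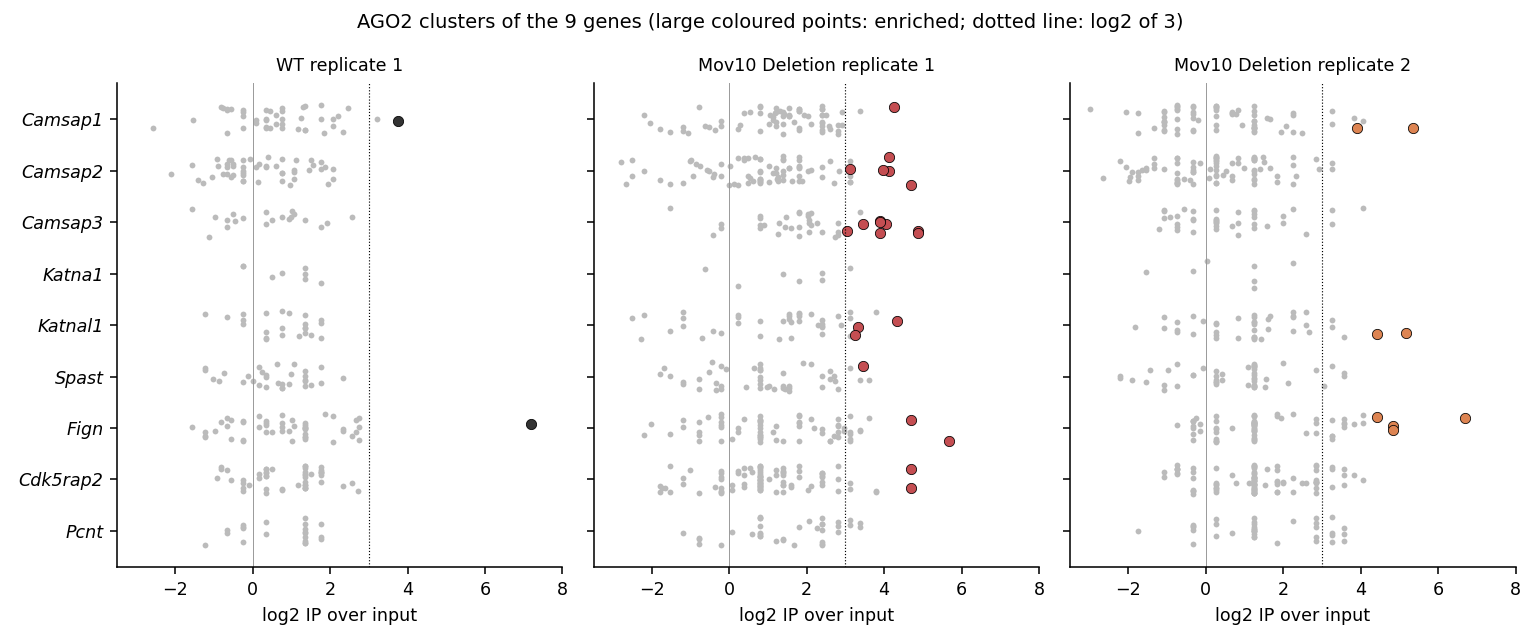
Log2 IP over input (x axis) of every AGO2 cluster in the 9 genes (rows) in the 3 libraries (panels), with enriched clusters as large coloured points and the dotted line at a log2 of 3. The *Fign* cluster lies farthest to the right in all 3 libraries, at 7.18, 5.68 and 6.70, and *Katna1* and *Pcnt* hold no enriched cluster.

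Clusters at gene ends were counted apart from those elsewhere. In the last 1000 nt of the gene bodies, 0 of 11 (exact upper limit 28.5%), 1 of 18 and 2 of 18 clusters were enriched (background of all gene-end clusters 10.1%, 15.5% and 9.65%). The last exons of several of these genes are much longer than this, up to 9393 nt in *Fign*, so the end was also counted over the length of the longest annotated last exon, where 2 of 44, 3 of 58 and 5 of 58 clusters were enriched (background 8.6%, 14.5% and 8.53%). Elsewhere in the gene bodies, 0 of 252 (exact upper limit 1.45%), 19 of 429 and 3 of 429 clusters were enriched (background 1.3%, 4.24% and 2.55%). These last-exon counts include *Spast* and *Pcnt*, whose gene ends differ between the annotations, and *Camsap3* and *Katna1*, whose ends were not checked. Exons and introns before the last exon were not separated. Both enriched WT clusters and 5 of the 8 in *Mov10* Deletion replicate 2 thus lay within the last-exon length. In replicate 1, 19 of the 22 lay outside it. Over all protein-coding genes, enriched clusters within this length and elsewhere numbered 3029 and 3924 in WT. They numbered 7353 and 22459 in replicate 1, and 4340 and 13502 in replicate 2.

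Among the minus-end genes, *Camsap1* (chr2:25926838-25983562, minus strand, mm10) held enriched clusters at a different place in each library. In WT the cluster chr2:25929006-25929091, 2169 nt from the gene end, had a log2 of 3.76 from 16 inferred IP reads over 1 input read (interval 1.07 to 9.15), at the lowest number of reads that could be called. No *Mov10* Deletion cluster overlapped it. In *Mov10* Deletion replicate 1 the enriched cluster was chr2:25942028-25942161, 15191 nt from the end, with a log2 of 4.26 (11 reads over 1), where replicate 2 had 1.25 and the overlapping WT cluster had 2.08. In replicate 2 an adjoining pair was enriched, chr2:25928540-25928595 with a log2 of 3.92 (19 reads over 3) and chr2:25928596-25928639 with 5.34 (17 reads over 1, interval 2.67 to 10.73). At these coordinates replicate 1 had 1.67 (11 over 6) and 2.50 (13 over 4), and the WT cluster chr2:25928556-25928605 had 0.60 (9 over 5). The pair was thus enriched in replicate 2 alone, with the same direction of IP over input in replicate 1.

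This place in the last exon of *Camsap1* was also where WT chimeric reads named miRNAs. The WT target cluster ran from 1662 to 1796 nt before the gene end and was assigned to miR-149-5p (score 4.97), miR-19b-3p (3.81) and miR-26a-5p (3.77). The score is the authors' own, is not described in the methods and was at least 3 throughout. The 7-nt matches to miR-19b-3p (TTTGCAC, 1753 to 1759 nt from the end) and miR-26a-5p (TACTTGA, 1728 to 1734 nt) printed above both fall inside this target cluster and inside the WT AGO2 cluster there, and no 7-nt match to miR-149-5p was found in the last exon. TTTGCAC occurs in 14.8% and TACTTGA in 12.7% of 21575 annotated last exons on the transcribed strand, the only strand searched. Neither *Mov10* Deletion library listed a target cluster at this place, and replicate 2 listed none in *Camsap1*. Another WT target cluster, 2903 to 3113 nt from the end and within the coding part of the last exon, named miR-9-5p (4.76) and miR-124-3p (4.0), and the highest score of the gene in WT was 9.51 for miR-124-3p at 35.7 kb from the end. *Mov10* Deletion replicate 1 listed 1 target cluster, for let-7e-5p (3.0) at 11.4 kb.

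*Camsap2* (chr1:136268123-136346117, minus strand, mm10), whose protein stabilises minus ends in dendrites and axons, had target clusters that recurred in all 3 libraries without an enriched AGO2 cluster beneath them. miR-125b-5p was named 1491 nt from the gene end in each. Its score was 12.9 in WT (rank 109 of 1354 assignments to this miRNA), 7.85 (215 of 1695) in the first *Mov10* Deletion library and 6.0 (147 of 742) in the other. The AGO2 clusters at this place rested on many reads, against a median of 4, 5 and 2 inferred IP reads over the clusters of the 9 genes for which reads could be inferred. They had a log2 of 1.94 in WT (100 inferred IP reads over 22 input reads, interval 1.26 to 2.68), 2.38 in replicate 1 (78 over 26, 1.73 to 3.08) and 2.92 in replicate 2 (76 over 24, 2.24 to 3.64). All 3 lay above 0 and below the log2 of 3 used for the call, and the interval of each overlapped those of the others. Their deposited −log10 p values were 8.87, 15.1 and 23.1, so all 3 passed the p-value but not the log2 needed. The 7-nt match to miR-125b-5p was not found in the last exon, nor was that to miR-26a-5p, named elsewhere in this exon in replicate 2.

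At 2.23 kb from the end of *Camsap2*, miR-124-3p was named in WT (score 11.4) and in *Mov10* Deletion replicate 1 (3.82). The AGO2 log2 there was 1.86 in WT (69 over 16), 2.83 in replicate 1 (49 over 12) and 1.67 in replicate 2 (16 over 12), with the highest value in replicate 1. Away from the last exon, miR-9-3p was named at 30.2 kb in all 3 libraries, with scores of 4.85, 3.97 and 5.98. miR-124-3p was named at 73.7 kb in WT (3.69) and replicate 2 (4.0).

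The enriched AGO2 clusters of *Camsap2* were all in *Mov10* Deletion replicate 1, and none lay at these target clusters. The gene-end cluster chr1:136268349-136268403, 227 nt from the end, had a log2 of 4.71 there (15 inferred IP reads over 1 input read) and 1.25 in replicate 2, and no WT cluster overlapped it. The highest away from the end, at 4.12 (10 over 1), was in a run of 3 adjoining clusters at chr1:136325166-136325252, where replicate 2 had 0.25 and WT no cluster. In WT the highest log2 of any *Camsap2* cluster was 2.08 (5 over 1), and in replicate 2 it was 3.25 (4 over 1, not enriched). *Camsap2* thus had its best-read clusters under the target clusters at 1.49 and 2.23 kb, and its enriched clusters at places with fewer reads. Its other target clusters lay over AGO2 clusters that were not enriched, with a log2 of 0.13 at 13.8 kb in WT, or over none.

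**Figure D2:**
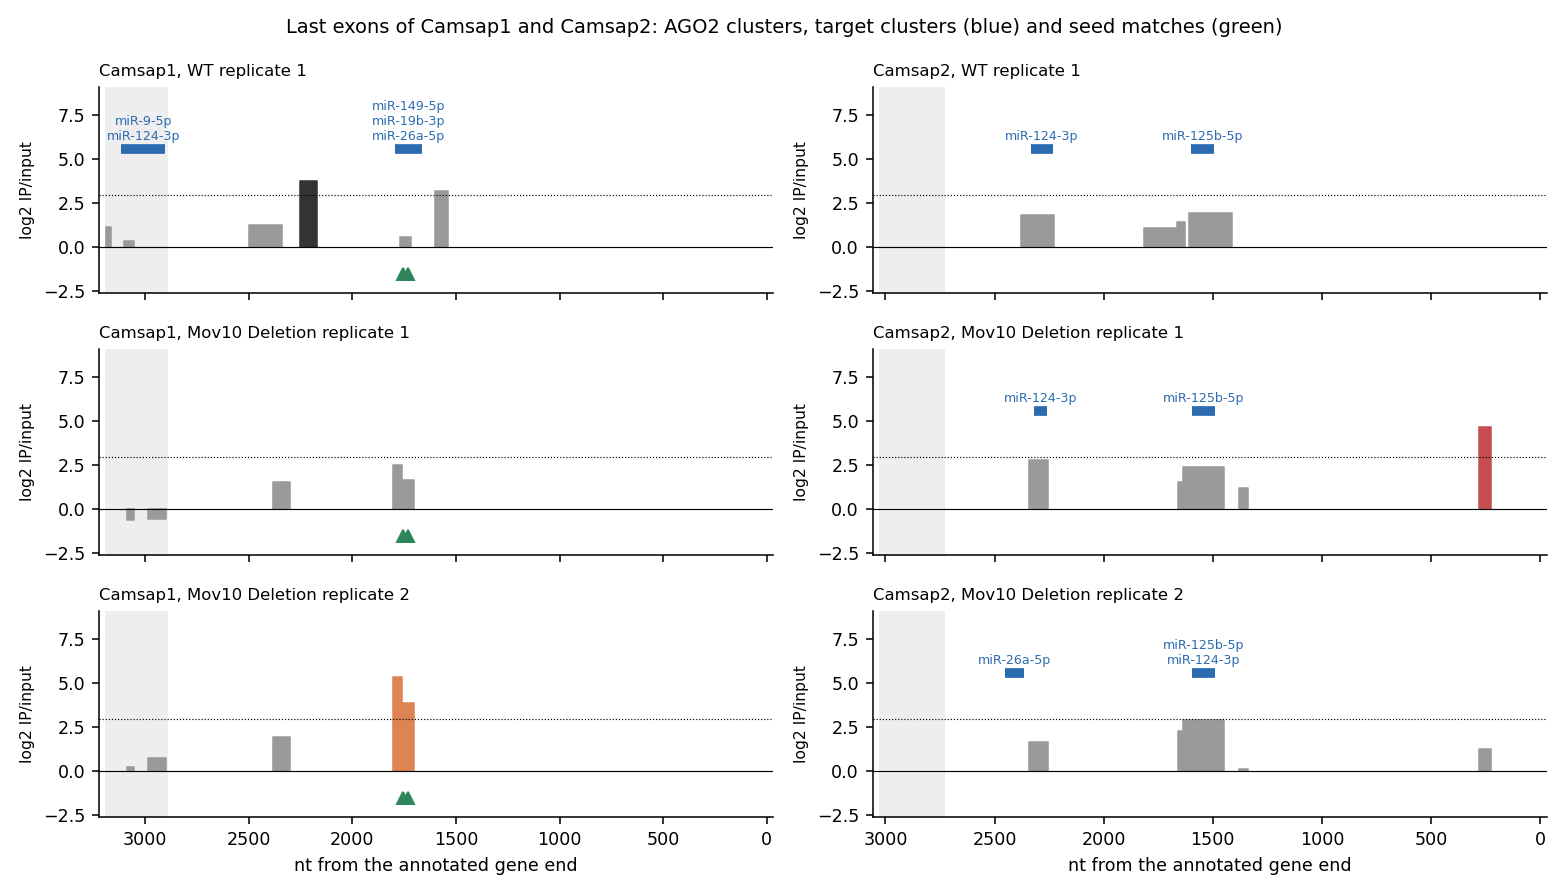
AGO2 clusters in the last exons of *Camsap1* (left) and *Camsap2* (right) in the 3 libraries, with distance from the annotated gene end in nt (x axis) and log2 IP over input (y axis), enriched clusters in colour, others in grey, the dotted line at 3, target clusters as blue bars with their miRNAs, 7-nt seed matches as green triangles and the coding part of the exon shaded grey. The miR-125b-5p target cluster of *Camsap2* stands at 1491 nt in all 3 libraries over AGO2 clusters of 1.94 to 2.92, whereas the enriched *Camsap1* pair is coloured in *Mov10* Deletion replicate 2 alone.

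*Camsap3* (chr8:3587237-3609075, plus strand, mm10), the family member best known from epithelial cells, held the most enriched clusters of the 9 genes in *Mov10* Deletion replicate 1, at 3 places. The highest was an adjoining pair at chr8:3597984-3598049 with a log2 of 4.89 each (17 inferred IP reads over 1 input read). In replicate 2 this pair had 3.25 (−log10 p 1.54), and no WT cluster overlapped it. The others were a single cluster of 3.05 and a run of 5 short clusters within chr8:3604389-3604433 of up to 4.05 (19 over 2). Replicate 2 had 1.25 at the single cluster and 0.25 throughout the run. A WT cluster of 0.76 overlapped parts of both. The highest *Camsap3* log2 was 2.56 in WT (7 over 1) and 4.06 in replicate 2 (7 over 1, −log10 p 2.93), neither enriched. The single gene-end target cluster of the 9 genes was in *Camsap3*, 604 nt from the end, for miR-124-3p in replicate 1 (score 3.10). let-7f-5p in WT (4.0, 5.14 kb) and let-7b-5p in replicate 1 (3.0, 4.12 kb) were named at different places.

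Of the severing enzymes, the katanin subunit gene *Katna1* (chr10:7725990-7763150, plus strand, mm10) had little AGO2 signal. It held 8 clusters in WT and 7 in each *Mov10* Deletion library, the fewest of the 9 genes. Its highest log2 was 1.76 in WT (4 inferred IP reads over 1 input read), 3.12 in replicate 1 (5 over 1) and 2.25 in replicate 2 (2 over 1), and none was enriched. No library listed a target cluster in it. Where reads could be inferred, its clusters had at most 6, 5 and 3 IP reads in the 3 libraries, below the 16, 9 and 8 needed over 1 input read.

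*Katnal1* (chr5:148871584-148929168, minus strand, mm10), which encodes a second catalytic katanin subunit, had enriched gene-end clusters in *Mov10* Deletion replicate 2 alone. They adjoined each other at chr5:148872050-148872106 (log2 4.42, 9 over 1) and chr5:148872107-148872191 (5.16, 15 over 1, interval 2.46 to 10.56), between 467 and 608 nt from the end. At the same coordinates replicate 1 had 1.54 and −2.52, and no WT cluster overlapped. Replicate 1 instead had its highest cluster at chr5:148904655-148904686, 33072 nt from the end, at 4.32 (23 over 2), where replicate 2 had 1.62. WT had no *Katnal1* cluster above 1.76 (8 over 2). The only target cluster was for miR-124-3p in replicate 1 (5.07), 4.08 kb from the end and within the last-exon length. No *Katnal1* cluster was enriched in both *Mov10* Deletion replicates.

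*Spast* (chr17:74337923-74391115, plus strand, mm10) encodes spastin, the severing enzyme mutated in a common form of hereditary spastic paraplegia. Its enriched cluster, chr17:74374146-74374180 in *Mov10* Deletion replicate 1 (log2 3.46, 19 over 3), lay 16936 nt from the end, had −0.33 in replicate 2 and overlapped no WT cluster. The highest *Spast* values of WT and replicate 2 were 2.34 (6 over 1) and 3.58 (5 over 1), neither enriched. Target clusters of low score were listed in all 3 libraries, for 7 assignments to 6 miRNAs. miR-495-3p in WT (4.0) and miR-9-5p in replicate 2 (3.86) were named at overlapping places, 1.12 kb from the end. The highest score in replicate 1 was 5.95 for miR-466i-5p at 28.4 kb. The RefSeq gene end of mm10 and the GENCODE end of GRCm39 differ for *Spast* by 2060 nt, so no seed matches are printed above.

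*Fign* (chr2:63971508-64098038, minus strand, mm10), which encodes fidgetin, a severing enzyme that trims labile microtubules in neurons, held the most enriched cluster of the 9 genes in every library. In WT it was chr2:63973520-63973718, with a log2 of 7.18 from 172 inferred IP reads over 1 input read (interval 4.69 to 12.49). In the *Mov10* Deletion libraries it was chr2:63973512-63973712, with 5.68 in replicate 1 (118 over 4, 4.29 to 7.58) and 6.70 in replicate 2 (87 over 2, 4.80 to 9.77). Among all clusters of each library these ranked 34 of 359172, 575 of 616014 and 196 of 616005 by log2. The 3 intervals overlapped, so the order of the libraries was not resolved at this depth. The cluster started 2013 nt from the gene end in WT and 2005 nt in *Mov10* Deletion, within a last exon of 9393 nt whose final 7141 nt follow the last coding base, and so outside the last 1000 nt.

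Chimeric reads named let-7 at this cluster in all 3 libraries. In WT the target cluster chr2:63973553-63973706 was assigned to 5 let-7 members, let-7c-5p (score 39.2), let-7a-5p (13.0), let-7e-5p (9.0), let-7b-5p (8.99) and let-7d-5p (4.92), and also to miR-124-3p (13.3) and miR-9-5p (3.84). *Mov10* Deletion replicate 1 named let-7c-5p (12.8), let-7a-5p and let-7e-5p (5.0 each), with miR-125b-5p and miR-33-5p (3.0 each). Replicate 2 named let-7c-5p (6.91) and let-7b-5p (5.0). let-7c-5p thus had the highest score in every library, and its WT score ranked 8 of 777 among all let-7c-5p assignments, against 50 of 1012 and 71 of 413 in the *Mov10* Deletion replicates. Because let-7 members differ outside the seed by few nucleotides, as the sequences above show, the split of chimeric reads among them is uncertain.

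The last exon of *Fign* held 4 matches to the let-7 seed (CTACCTC), which occurs in 14.1% of 21575 annotated last exons, and once per 13.4 kb of them. The match at chr2:63803953-63803959, 2103 to 2109 nt from the end, fell inside the target cluster and the enriched AGO2 cluster in all 3 libraries. The match 2001 to 2007 nt from the end lay outside the target clusters, outside the WT AGO2 cluster and partly inside that of the *Mov10* Deletion libraries. The other matches were looked up after their positions had been seen, and both fell inside AGO2 clusters that were not enriched. At 5679 to 5685 nt the log2 was 2.66 in WT (15 over 2), 2.18 in replicate 1 (13 over 5) and 1.25 in replicate 2 (3 over 3). At 8064 to 8070 nt, in the coding part, it was 2.76 (8 over 1), 3.61 (7 over 1) and −0.33. AGO2 clusters cover 7.35%, 8.35% and 8.35% of this exon in the 3 libraries. No 7-nt match to miR-9-5p, miR-125b-5p or miR-33-5p, also named at the enriched cluster, was found in this exon. A match to miR-124-3p was not searched, as its sequence was missing.

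**Figure D3:**
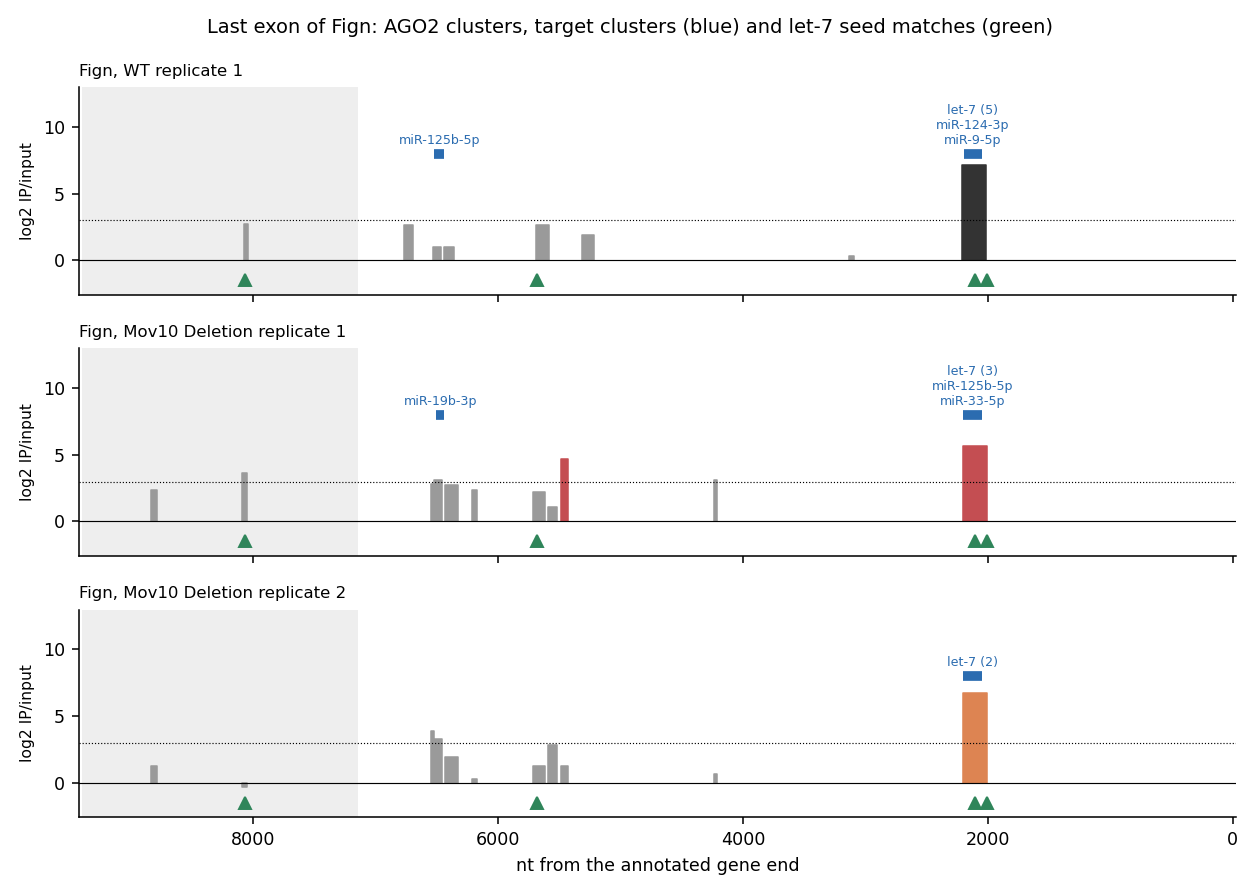
AGO2 clusters in the last exon of *Fign* in the 3 libraries, with distance from the annotated gene end in nt (x axis) and log2 IP over input (y axis), enriched clusters in colour, others in grey, the dotted line at 3, target clusters as blue bars with their miRNAs, let-7 seed matches as green triangles and the coding part of the exon shaded grey. The cluster about 2 kb from the end carries let-7 in all 3 libraries, at 7.18, 5.68 and 6.70.

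Elsewhere in *Fign*, enriched clusters did not recur. *Mov10* Deletion replicate 1 had one at chr2:63976938-63976996, 5431 nt from the end, at 4.71 (15 over 1), where replicate 2 had 1.25. Replicate 2 had 3 adjoining clusters at chr2:64095906-64095999, near the 5′ end of the gene, of 4.84, 4.84 and 4.42 (12, 12 and 9 over 1), where replicate 1 had −0.20, 0.21 and −0.20 and WT had 1.08. Target clusters away from the let-7 place were listed in 1 library each, apart from a place 6.44 kb from the end where WT named miR-125b-5p (6.0) and replicate 1 named miR-19b-3p (4.0). The highest of them in WT was miR-124-3p at 87.7 kb (7.12).

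**Figure D4:**
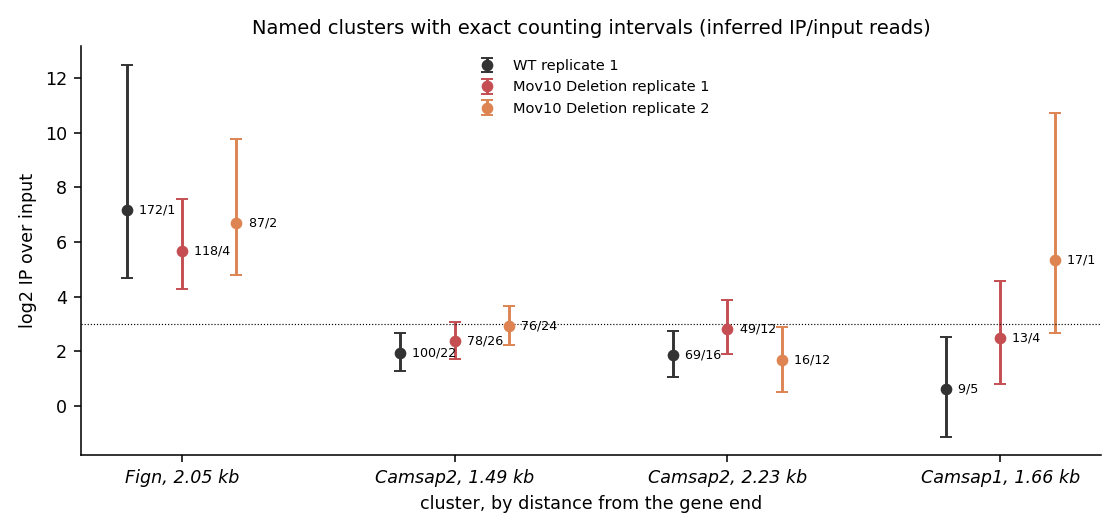
Log2 IP over input (y axis) of the AGO2 clusters at 4 target places, in *Fign*, *Camsap2* (2 places) and *Camsap1*, by distance from the gene end in kb (x axis). Points are the 3 libraries, bars are exact 95% counting intervals, labels are inferred IP over input reads and the dotted line is a log2 of 3. The *Fign* intervals lie wholly above 3 in all 3 libraries, and those of *Camsap2* at 1.49 kb overlap each other.

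The centrosomal scaffold genes had no enriched cluster in WT or in *Mov10* Deletion replicate 2. *Cdk5rap2* (chr4:70216855-70410435, minus strand, mm10), the longest of the 9 genes and a microcephaly gene, had its enriched clusters in replicate 1, an adjoining pair at chr4:70326748-70326849 of 4.71 each (15 over 1), 109894 nt from the end. There replicate 2 had −0.75 and WT no cluster. The highest WT cluster of *Cdk5rap2*, chr4:70334018-70334231, had a log2 of 2.71 (31 over 4) with a −log10 p of 4.65, and so passed the p-value but not the log2 needed. The highest in replicate 2 was 4.06 (7 over 1), which did not pass the p-value. miR-30e-5p in replicate 1 and miR-30b-5p in replicate 2 (4.0 each) were named at different places, 166 kb and 159 kb from the end.

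*Pcnt* (chr10:76351254-76442912, minus strand, mm10), which encodes pericentrin, had no enriched cluster in any library. Its highest log2 was 1.76 in WT (4 over 1), 3.38 in *Mov10* Deletion replicate 1 (6 over 1) and 3.58 in replicate 2 (5 over 1). Its single target cluster was for miR-124-3p in replicate 2 (4.0), 12.5 kb from the end. Where reads could be inferred, its clusters had at most 12, 12 and 5 IP reads in the 3 libraries.

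Across the 9 genes, target clusters stood at 35 places, 11 in the last-exon length and 24 elsewhere. Of these, 28 were listed in 1 library, 4 in 2 and 3 in all 3. The same miRNA was named in all 3 libraries at 3 places, let-7c-5p in *Fign* and miR-125b-5p and miR-9-3p in *Camsap2*. A target cluster was listed in 5, 7 and 5 of the 9 genes in the 3 libraries, against 40.9%, 45.9% and 32.2% of the genes with an AGO2 cluster. These gene shares were not adjusted for clusters per gene either. let-7 took 6 of 26 assignments in WT (23.1%, exact 95% interval 8.97 to 43.6), 6 of 22 in *Mov10* Deletion replicate 1 (27.3%, 10.7 to 50.2) and 2 of 12 in replicate 2 (16.7%, 2.09 to 48.4), with 9.58%, 9.82% and 8.76% in the whole libraries. Since 5, 3 and 2 of these stand at the 1 place in *Fign*, they are not independent. miR-124-3p, an abundant neuronal miRNA, took 10 of 26, 5 of 22 and 5 of 12, or 38.5%, 22.7% and 41.7%, with 42.2%, 34.8% and 36.8% in the libraries.

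An AGO2 cluster of any level lay under 16 of 17, 10 of 18 and 4 of 10 target clusters in these genes (68.8%, 50.2% and 53.6% of all target clusters). An enriched AGO2 cluster lay under 1 in each library, always that of *Fign*, against 15.0%, 11.7% and 12.0% of all target clusters. In last exons other than that of *Spast*, a 7-nt seed match inside the target cluster that named the miRNA was found at 2 places. These were let-7 in *Fign* and miR-19b-3p and miR-26a-5p in *Camsap1*. *Spast* was left out because its gene ends differ by 2060 nt, so matches there were not placed. Counted from these ends, 1 miR-9-5p match lay 2054 nt outside the replicate 2 target cluster that named it. If the whole difference lies beyond the mm10 end, this match would fall inside that target cluster, which was not tested. The other miR-9-5p match (474 nt outside) and that to miR-495-3p (2405 nt outside its WT target cluster) would not. Of 25 last-exon assignments to miRNAs with a sequence, 12 had a match inside the target cluster, with those of *Spast* scored as having none. The *Fign* ones are 1 match counted for each let-7 member and library, so the 12 are not independent.

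**Figure D5:**
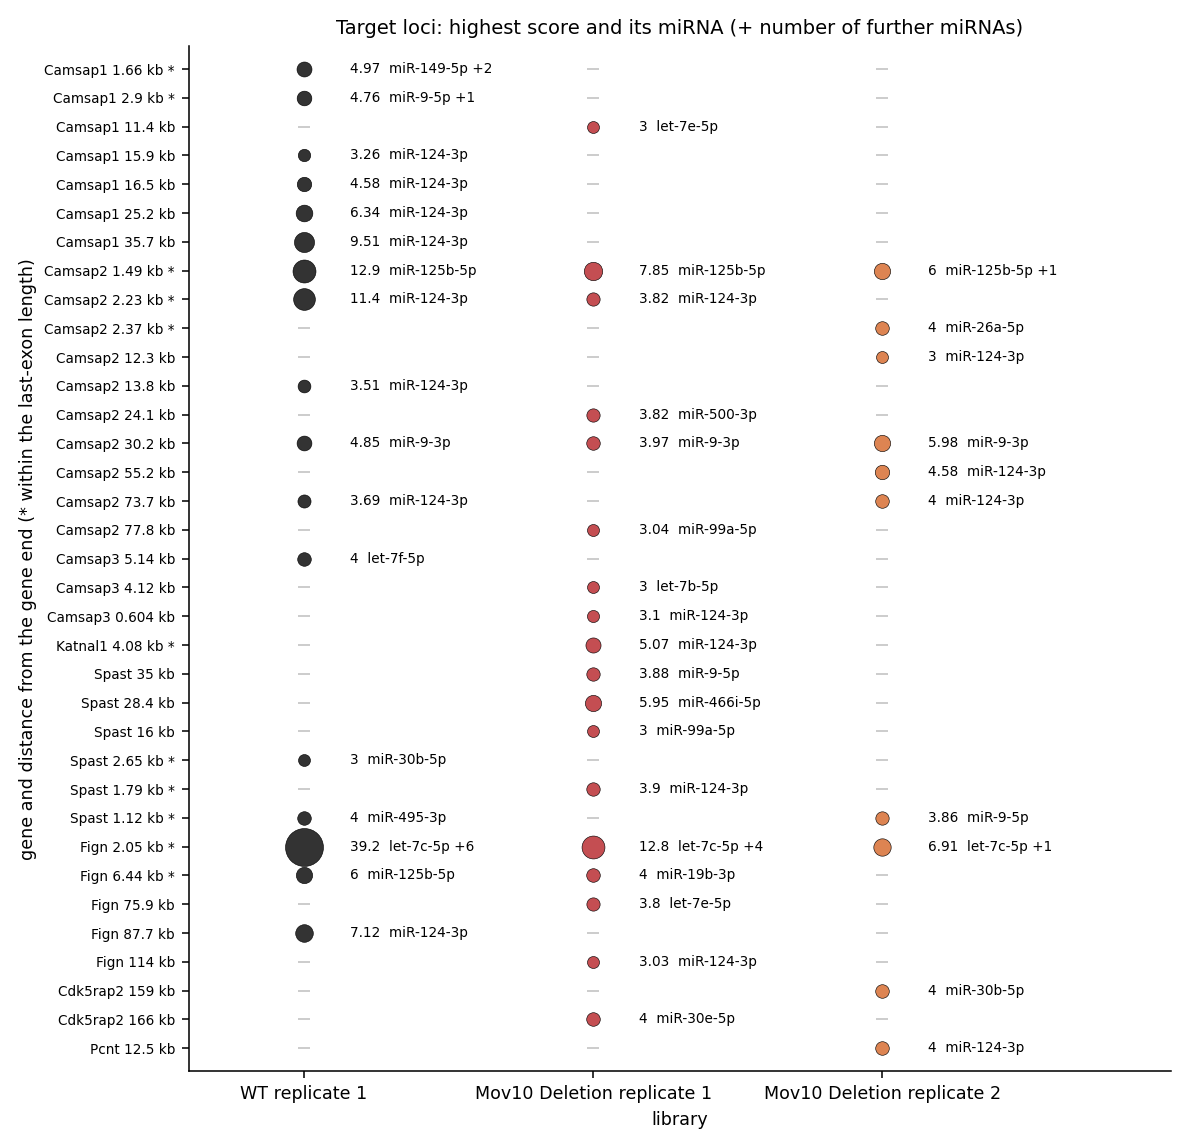
Target clusters of the 9 genes by place (rows, gene and distance from the gene end in kb, an asterisk marking the last-exon length) and library (x axis). Each point is a target cluster with its highest score and miRNA, its area growing with the score and a dash marking none listed. The *Fign* place at 2.05 kb has the highest score in every library, at 39.2, 12.8 and 6.91, and most places have a point in 1 library.

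Other genes of the same processes were counted for comparison, 30 in all. They were 5 severing partners, 10 genes of the γ-tubulin ring complex, 7 pericentriolar and anchoring scaffolds and 8 augmin genes, whose complex starts new microtubules from the side of old ones. An enriched cluster was held by 2 of the 30 in WT and by 10 and 9 in *Mov10* Deletion replicates 1 and 2 (18.7%, 40.9% and 32.1% of all genes with a cluster). In both *Mov10* Deletion libraries 7 held one, and in all 3 libraries 2 did (24.1% and 15.6% of all genes with a cluster in those libraries). None of the 8 augmin genes held an enriched cluster in any library, and 0, 4 and 1 of the 10 genes of the γ-tubulin ring complex did. The scaffolds held one in 1, 4 and 5 of 7 genes and the severing partners in 1, 2 and 3 of 5. These counts were not adjusted for clusters per gene. The augmin genes held 0 to 11 clusters each in WT and 0 to 12 in each *Mov10* Deletion library. The scaffolds held 2 to 104 in WT and 5 to 197 in each *Mov10* Deletion library. *Fignl2*, a relative of *Fign*, was the only gene of the 30 with an enriched gene-end cluster in all 3 libraries. Its highest gene-end log2 was 4.56 in WT at chr15:101050271-101050390 (28 over 1), 5.38 in replicate 1 at chr15:101050284-101050383 (24 over 1) and 4.84 in replicate 2 at the same coordinates (12 over 1).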

How the data were processed

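AGO2 clusters and miRNA target clusters of 1 WT and 2 *Mov10* Deletion IP libraries were analysed. The 3 input libraries entered only through the deposited ratios. Per the submitters' processing notes, the tools were UMI-tools 1.1.1, cutadapt 3.2, STAR 2.7.7a and Bowtie 1.2.3, with build mm10. Per the methods, the authors removed repeat and rRNA reads and PCR duplicates and called clusters with CLIPper. The authors deposited IP over input as log2 and the p-value as −log10, which stops at 400, and for each target cluster a miRNA and a score that is not described. Whether the *Mov10* Deletion clusters were called together is not stated in the sources used here. The labels do not say whether a library was 1 brain or a pool.

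Gene bodies came from RefSeq (GRCm38.p6, the assembly of mm10), and strands from RefSeq or from GENCODE vM39 by symbol. Genes without a strand were left out. Exons came from GENCODE vM39 (GRCm39), so last exons were laid onto mm10 by their distance from the gene end, and no coordinates were converted. Start-to-end distances in both builds differed by at most 3 nt for *Camsap1*, *Camsap2*, *Katnal1*, *Fign* and *Cdk5rap2*, but by 247 nt for *Pcnt* and 2060 nt for *Spast*, and were not checked for *Camsap3* and *Katna1*, so last-exon placement is uncertain for these 4 genes. Seed matches were 7-nt matches to miRNA nucleotides 2 to 8.

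Total depth is unknown. Reads of a cluster were inferred as the whole numbers, with up to 60 input reads tried, that gave the deposited ratio and the deposited −log10 p within 0.001. This is a model, and it was not applied to clusters with a negative log2. On 20000 simulated clusters a library, made with the same formulas, it recovered 100% of the enriched ones (7818, 7921 and 7973). That checks the calculation and cannot show that the authors used these formulas. In the real data, a pair was found for 97.9%, 99.7% and 99.5% of enriched clusters. Reads carry molecular identifiers. The 95% intervals are exact (Clopper-Pearson) and hold counting error alone.

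No genotype test was made, as WT had 1 library. The genes and lists were chosen with earlier results of these data known. By rule, the clusters named were every enriched gene-end cluster and, per gene and library, the highest enriched cluster and the highest target score away from the gene end. Clusters at target places, the highest clusters of genes without an enriched cluster and other target clusters named were added after their values were seen. Alternatives changed the cut-offs, the length of the gene end and the counting. Python 3.11.15, pandas 2.3.3, numpy 2.4.6 and scipy 1.17.1 were used.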

Additional observations from a re-analysis of the deposited data

How the results depend on the processing

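Of 118 alternative values for 16 results, 71 stayed within 1.5 times and 47 moved, each given here for WT, *Mov10* Deletion replicates 1 and 2. A minimum −log10 p of 5 left 1 enriched cluster in 1 gene in WT and 1 enriched gene-end cluster in replicate 2. A minimum log2 of 2 gave 39 clusters and 2 gene-end clusters in replicate 1, 5 genes in replicate 2 and 5 genes in both *Mov10* Deletion libraries, and a minimum of 4 left 1 cluster in 1 gene in WT and 12 clusters in replicate 1. At least 16 inferred IP reads left 12 clusters in 4 genes in replicate 1 and 3 clusters in replicate 2, 0 gene-end clusters in each, and 1 gene in both, *Fign*. The gene-end length moved gene-end clusters to 1 in replicate 2 at 500 nt, 4 at 2000 nt, and 2, 8 and 5 in the 3 libraries at 5000 nt, or 2, 3 and 5 over the last-exon length. Gene-end target clusters became 0 in replicate 1 at 500 nt, 3, 3 and 2 at 2000 nt, 7, 7 and 4 at 5000 nt, and 8, 6 and 4 over the last-exon length. A score of at least 5 left 7, 4 and 3 target clusters and 0 at the gene end in replicate 1. Counting each miRNA gave 26 in WT, and requiring an AGO2 cluster left 10 in replicate 1 and 4 in replicate 2. Leaving out either *Mov10* Deletion replicate gave 3 to 7 genes, against 3 with both required. Alternatives chosen after seeing the data were runs of adjoining clusters (13 in replicate 1, 4 in replicate 2, 1 at the gene end in replicate 2) and positions enriched in both *Mov10* Deletion libraries (1). No paired analysis was possible because WT and *Mov10* Deletion share only 1 replicate number and no test was made. Depth limits these values, since 2 of 2, 10 of 22 and 6 of 8 enriched clusters rest on 1 inferred input read.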
